A study of Mus musculus with 12 samples.

Results

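The 10 genes described here are associated with regulatory T cells, and they were followed in CD8 T cells that carry the scurfy mutation of Foxp3. They were Il2ra, Ctla4, Tnfrsf18, Tnfrsf4, Nrp1, Itgae, Nt5e, Folr4, Capg and Swap70, taken by symbol, and all 10 had a row among the 11581 genes of the deposited table. The study placed CD8 T cells with the OT-1 T cell receptor, which recognises the SIINFEKL peptide of ovalbumin, in 12 libraries of 4 groups, with 3 libraries per group. The cells of Uns Foxp3_Scurfy came from chimeric mice given a mixture of OT-1 Foxp3Scurfy CD45.1+/2+ marrow and CD45.2+ marrow. Scurfy is a spontaneous loss-of-function mutation of the X-linked gene Foxp3. The control was Uns Foxp3_WT, from chimeras given OT-1 Foxp3wt CD45.1+/2+ marrow with the same CD45.2+ partner marrow. Both groups are labelled with the strain CD45.2+ C57BL/6 J, were taken 2 months after reconstitution and received no peptide. The other 2 groups received peptide for 6 h and were not analysed here, because the table for them holds the unstimulated values under unstimulated column names. Both genotypes carry the OT-1 receptor, and the labels do not give the Foxp3 genotype of the partner donors. The labels describe highly purified fresh CD8 cells. They do not say how cells of the OT-1 donor were separated from those of the partner donor, or whether each library is a different mouse. The p-values therefore reflect only how far these samples varied, possibly for technical reasons.

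Foxp3 is the transcription factor that defines regulatory T cells, CD4 cells that restrain other T cells. It acts together with NFAT and other factors at many of the genes named here, activating some and repressing others. Several of these genes are not exclusive to regulatory cells. Conventional CD4 and CD8 T cells raise Il2ra, Ctla4, Tnfrsf18 and Tnfrsf4 after T cell receptor signals, and Itgae is typical of CD8 T cells that have received TGF-beta. Foxp3 itself had no row in the table. It was not analysed here, and the labels of genotype could not be checked by its transcript.

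Of the 10 genes, Capg rose in scurfy cells and the other 9 did not pass an adjusted p of 0.05 in limma. Of all genes tested, 4.47% passed, with 246 higher (2.12%) and 272 lower (2.35%) in scurfy libraries. Capg was also the one called by edgeR, which called 4.71% of all genes, with a length trend removed (2.63%) and with the replicate number as a block (3.21%). Of the 10 log2 fold changes 6 were positive and 4 were negative, with a median of 0.26 for the 10 genes and 0.01 for all genes. The median size of the difference, sign ignored, was 0.29 for the 10 genes and 0.25 for all genes on the log2 scale. In 4 of the 10 the scurfy and wild-type libraries did not overlap. This held for 27.1% of all genes. Scurfy libraries lay above wild type for Capg and Tnfrsf18, and below it for Nrp1 and Itgae. The same 4 genes had an unadjusted p under 0.05, as did 21.2% of all genes.

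**Figure D1:**
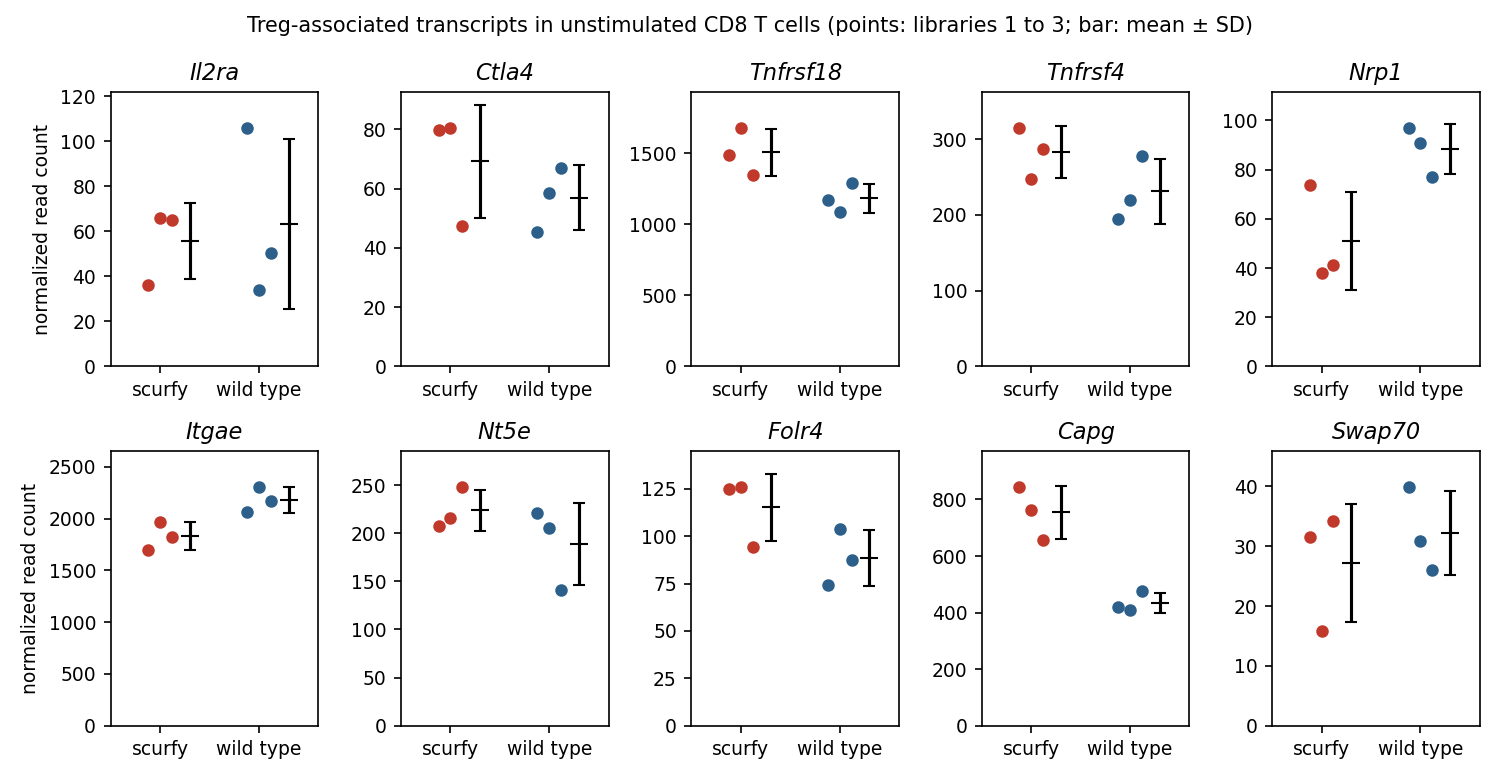
Deposited normalized read counts (vertical axes, each starting at 0) of the 10 genes in the 3 scurfy and 3 wild-type unstimulated libraries; each point is 1 library and the bar is the mean ± SD. Capg lies between 657 and 844 in scurfy libraries and between 408 and 475 in wild-type libraries, whereas the points of 6 genes overlap between the groups.

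Libraries held 10091477 to 10498525 reads in the scurfy group and 8852518 to 23149523 in the wild-type group over the genes of the table, the deepest being wild-type library 2. Each deposited value is the reads of a gene over the size factor of that library, and 1 read was worth 0.483 to 1.33 normalized counts. The labelled cell type was checked with 8 T cell markers, Cd8a and Cd8b1 among them, all with a row. Their summed level was 68260 to 75493 normalized counts in scurfy and 63254 to 65092 in wild-type libraries. Of the 8, only Cd3d passed, as higher, at a mean of 11635 in scurfy and 6837 in wild-type cells. Log2 fold changes of Cd3g, Cd3e, Trac and Cd8a were 0.46, 0.27, 0.16 and 0.12. Cd8b1 was at 0.00, with means of 21566 in scurfy and 21498 in wild-type cells, and Lck and Cd247 were at -0.09 and -0.11. None of 4 CD4 T cell markers (Cd4, Zbtb7b, Cd40lg and Foxp3) and none of 5 natural killer cell markers had a row, and the lowest mean of any row was 7.10 normalized counts, and the level of a gene that has no row is unknown. Of 12 B cell markers 7 had a row, summing to 9895 to 11352 in scurfy and 10971 to 11753 in wild-type libraries. Most of that sum was Ighm, at a mean of 10309 in scurfy and 10862 in wild-type cells. The groups overlapped for Ighm, for Cd79b (136 in scurfy, 166 in wild-type cells) and for Ighd (195 and 215), and none of these passed. The MHC class II genes were lower in every scurfy library than in any wild-type library. H2-Aa, with means of 6.82 in scurfy and 71.7 in wild-type cells, passed. Without a call in limma, the means were 1.61 and 20.5 for H2-Ab1 and 4.39 and 24.5 for H2-Eb1. H2-Ab1 passed in edgeR (adjusted p = 0.0425) and with library totals (limma adjusted p = 0.0408). The invariant chain gene Cd74 was at 16.4 in scurfy and 33.6 in wild-type cells, also without a call. In bulk RNA, fewer cells that express a gene and less RNA per cell cannot be told apart.

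Capg encodes a protein of the gelsolin family that caps the barbed ends of actin filaments. It was at 844, 764 and 657 normalized counts in scurfy libraries 1 to 3, against 421, 408 and 475 in wild-type libraries 1 to 3. The lowest scurfy library thus exceeded the highest wild-type library. The mean was 755 ± 93.7 in scurfy and 435 ± 35.5 in wild-type cells (SD, n = 3 each), a 1.74-fold ratio of means. The log2 fold change was 0.79 on the log2(value + 1) scale, with an SE of 0.14, a 95% interval of 0.49 to 1.09 and a limma adjusted p of 0.00862. By size it was number 119 of the 246 genes called higher. The call held whichever of the 6 libraries was left out, with limma adjusted p from 0.00837 to 0.0366. It ended when limma was run without a variance trend and without robust moderation (adjusted p = 0.128), a setting that called no gene of the table. In the authors' deposited table the log2 fold change of Capg was 0.80 with an SE of 0.16 and an adjusted p of 4.3e-05. That authors' deposited table called 8.90% of the genes to which it gave an adjusted p.

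Macrophages and dendritic cells also make Capg in large amounts. Of 7 planned myeloid markers, Cst3 and Cd68 had a row, and Lyz2, Itgam, Csf1r, Adgre1 and Fcer1g had none. Cst3 and Cd68 together summed to 1463 to 1579 normalized counts in scurfy and 850 to 1172 in wild-type libraries. Most of that sum was Cst3, at a mean of 1454 in scurfy and 974 in wild-type cells. Cst3, which encodes the secreted protease inhibitor cystatin C, rose (log2 fold change 0.59, limma adjusted p = 0.0202) and lost its call without scurfy library 2, scurfy library 3 or wild-type library 2, with adjusted p up to 0.0815. Its call also ended with library totals (limma adjusted p = 0.0529) and with the length trend removed (0.0843). Cd68, an endosomal glycoprotein of phagocytes, was at 61.8, 57.4 and 56.7 in scurfy and at 34.6, 29.0 and 41.1 in wild-type libraries (log2 fold change 0.74, adjusted p = 0.210). Markers of antigen-presenting cells did not all go the way of Capg: H2-Aa fell, with a log2 fold change of -3.97. H2-Ab1, H2-Eb1 and Cd74 were at -3.48, -2.34 and -0.99 without a call in limma. The dendritic cell markers Bst2 and Tcf4 were at 0.15 and 0.38 and did not pass. The part of these cells in the Capg result was not tested.

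Swap70 encodes an actin-binding protein that signals to the GTPase Rac, first found in B cells. Its transcript was the scarcest of the 10, with 13 to 64 reads per library. It was at 31.5, 15.9 and 34.3 normalized counts in scurfy libraries, against 39.9, 30.9 and 26.0 in wild-type libraries. The groups overlapped, and scurfy library 2 was the lowest of the 6. The log2 fold change was -0.29, with a 95% interval of -1.22 to 0.64 (limma adjusted p = 0.747), and it was 0.05 without scurfy library 2. At 13 reads, counting error alone is 27.7% of the value. An annotated antisense gene shares 395 exonic bases with Swap70, and no source used here states whether counting used strand, which leaves the level of Swap70 uncertain.

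The sequences before the transcription starts of 4 genes are shown because they belong to the gene that changed (Capg), to 2 genes whose groups did not overlap (Tnfrsf18 and Nrp1), and to the one with a forkhead match (Swap70). Each is the 250 bases upstream of the RefSeq start in build GRCm38.p6, all on the plus strand, at chr6:72549397-72549646 for Capg, chr4:156026072-156026321 for Tnfrsf18, chr8:128358823-128359072 for Nrp1 and chr7:110221453-110221702 for Swap70. Capitals mark matches on either strand to a forkhead motif (GTAAACA), an NFAT core (TTTCC), a Stat motif (TTCNNNGAA) or a cyclic AMP response half-site (TGACG). No 2 matches overlap in these 4 sequences.
Capg: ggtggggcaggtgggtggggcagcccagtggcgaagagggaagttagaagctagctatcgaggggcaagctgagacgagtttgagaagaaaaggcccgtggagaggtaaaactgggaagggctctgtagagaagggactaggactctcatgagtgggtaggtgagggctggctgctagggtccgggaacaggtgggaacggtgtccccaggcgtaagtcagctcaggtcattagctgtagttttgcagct
Tnfrsf18: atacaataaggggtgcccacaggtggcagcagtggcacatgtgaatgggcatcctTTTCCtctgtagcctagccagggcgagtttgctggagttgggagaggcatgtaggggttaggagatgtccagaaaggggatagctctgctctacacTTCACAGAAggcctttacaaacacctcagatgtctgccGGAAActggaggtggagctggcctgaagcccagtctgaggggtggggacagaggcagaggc
Nrp1: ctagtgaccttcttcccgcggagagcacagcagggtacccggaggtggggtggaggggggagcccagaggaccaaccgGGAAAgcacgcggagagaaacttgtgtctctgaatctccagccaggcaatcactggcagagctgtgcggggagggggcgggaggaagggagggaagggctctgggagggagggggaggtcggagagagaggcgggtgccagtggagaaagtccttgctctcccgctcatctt
Swap70: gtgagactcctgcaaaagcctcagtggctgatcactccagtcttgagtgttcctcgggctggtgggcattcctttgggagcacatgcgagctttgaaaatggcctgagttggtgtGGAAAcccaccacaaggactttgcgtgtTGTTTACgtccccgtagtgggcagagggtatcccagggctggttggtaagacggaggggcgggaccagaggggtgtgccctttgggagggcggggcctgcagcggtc

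The forkhead letters, which Foxp3 and its relatives bind, occurred in 3.17% of 32851 upstream windows of the same length. Among the 9 genes with a window they occurred in that of Swap70, at position -107 from the start. The NFAT core occurred in 55.6% of all windows and in 7 of the 9, those of Capg and Nt5e being without it. The Stat letters occurred in 7.02% of all windows and in that of Tnfrsf18, and the half-site in 17.8% of all windows and in none of the 9. The window of Capg held none of the 4 motifs. A match describes these letters and is not evidence of binding, and a window without a match says nothing of the factor.

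The tumour necrosis factor receptors Tnfrsf18 (GITR) and Tnfrsf4 (OX40) are costimulatory receptors that signal through TRAF adaptors, and they lie next to each other on chromosome 4. Tnfrsf18 was the more abundant. It was at 1489, 1678 and 1346 normalized counts in scurfy libraries and at 1170, 1087 and 1287 in wild-type libraries. Every scurfy library lay above every wild-type library, by a gap that was small next to the spread within each group. Tnfrsf18 had a log2 fold change of 0.35, with a 95% interval of 0.09 to 0.60, and it did not pass after adjustment (limma adjusted p = 0.109, unadjusted p = 0.0109). An annotated antisense gene shares 414 exonic bases with Tnfrsf18, so reads of the pair cannot be told apart if strand was not used.

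Tnfrsf4 was at 315, 247 and 287 normalized counts in scurfy libraries and at 195, 220 and 278 in wild-type libraries. The groups overlapped through wild-type library 3. Tnfrsf4 had a log2 fold change of 0.30, with a 95% interval of -0.10 to 0.70 (limma adjusted p = 0.382). With a smooth trend on gene length taken out of each library, the log2 fold change was 0.23 for Tnfrsf18 and 0.16 for Tnfrsf4. Both genes are short, with 1524 and 1365 exonic bases against a median of 4075 over the table.

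Il2ra encodes the high-affinity chain of the interleukin-2 receptor (CD25). It was at 36.3, 65.9 and 65.0 normalized counts in scurfy libraries, against 106, 33.8 and 50.4 in wild-type libraries. The wild-type libraries alone spanned the whole range, and wild-type library 1 was the highest of the 6. Of the 10 genes Il2ra varied most beyond counting error within its groups, at 15.5 times the variance that sampling of reads gives. The log2 fold change was -0.07, with a 95% interval of -0.96 to 0.81 (limma adjusted p = 0.939). It was 0.37 without wild-type library 1 and 0.20 without scurfy library 1, so the data give no direction for Il2ra.

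Ctla4 encodes the inhibitory receptor that competes with Cd28 for CD80 and CD86. It was at 79.9, 80.5 and 47.3 normalized counts in scurfy libraries and at 45.2, 58.5 and 67.1 in wild-type libraries. Scurfy libraries 1 and 2 were the highest of the 6 and scurfy library 3 lay among the wild-type values. Ctla4 had a log2 fold change of 0.26, with a 95% interval of -0.44 to 0.95 (limma adjusted p = 0.694). The lowest library held 34 reads of Ctla4, at which counting error is 17.1% of the value.

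Nrp1, neuropilin-1, is a coreceptor for semaphorins and growth factors that marks regulatory T cells of thymic origin in mice. It was at 73.9, 37.8 and 41.4 normalized counts in scurfy libraries, against 97.0, 90.9 and 77.2 in wild-type libraries. All 3 scurfy libraries were lower than any wild-type library, with scurfy library 1 close below wild-type library 3. The mean was 51.0 ± 19.9 in scurfy and 88.4 ± 10.1 in wild-type cells (SD, n = 3 each). Its log2 fold change of -0.84 was the largest in size among the 10 genes, with a 95% interval of -1.53 to -0.15, and it did not pass after adjustment (limma adjusted p = 0.149). The adjusted p was 0.0779 to 0.348 with 1 library left out. Plasmacytoid dendritic cells and macrophages also express Nrp1. Of 7 dendritic cell markers Bst2 and Tcf4 had a row, both also expressed by T cells, and Siglech, Itgax, Flt3, Zbtb46 and Xcr1 had none. Bst2 and Tcf4 summed to 1192 to 1427 in scurfy and 1135 to 1267 in wild-type libraries, and most of that sum was Bst2. The MHC class II gene H2-Aa, made by B cells and antigen-presenting cells, was at 15.7, 0 and 4.73 normalized counts in scurfy libraries and at 57.2, 84.1 and 73.9 in wild-type libraries. H2-Aa thus fell, and Nrp1 was also lower (limma adjusted p = 0.0164 for H2-Aa, with its call lost without wild-type library 2 or 3, at up to 0.0706). The myeloid markers Cst3 and Cd68 went the other way, at 0.59 with a call and 0.74 without one. The part of these cells in the Nrp1 values was not tested.

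Itgae encodes the alpha-E integrin chain CD103, which pairs with the beta-7 chain Itgb7 to bind E-cadherin. It was the gene with the most reads of the 10. It was at 1698, 1966 and 1824 normalized counts in scurfy libraries, against 2062, 2305 and 2175 in wild-type libraries. The scurfy values were all lower, with a mean of 1829 ± 134 in scurfy against 2181 ± 122 in wild-type cells (SD, n = 3 each). The log2 fold change was -0.25, with a 95% interval of -0.48 to -0.03 (limma adjusted p = 0.178). With values scaled by library total in place of the authors' size factors, Itgae passed at -0.39 (limma adjusted p = 0.0441). Under library totals the median over all genes was -0.13 on the log2 scale, and 8.02% of all genes passed.

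Nt5e encodes CD73, the surface enzyme that makes adenosine from AMP. It was at 207, 216 and 248 normalized counts in scurfy libraries and at 221, 205 and 141 in wild-type libraries. The groups overlapped, and wild-type library 3 was the lowest of the 6. The log2 fold change was 0.27, with a 95% interval of -0.18 to 0.71 (limma adjusted p = 0.499), and it was 0.07 without wild-type library 3. Folr4 is the older name of Izumo1r, a relative of folate receptors that is abundant on regulatory T cells and serves on the egg as the receptor for sperm Izumo1. It was at 125, 126 and 94.6 normalized counts in scurfy libraries and at 74.4, 104 and 87.3 in wild-type libraries. Scurfy library 3 lay below wild-type library 2, so the groups overlapped. Folr4 had a log2 fold change of 0.37, with a 95% interval of -0.17 to 0.92 (limma adjusted p = 0.431).

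**Figure D2:**
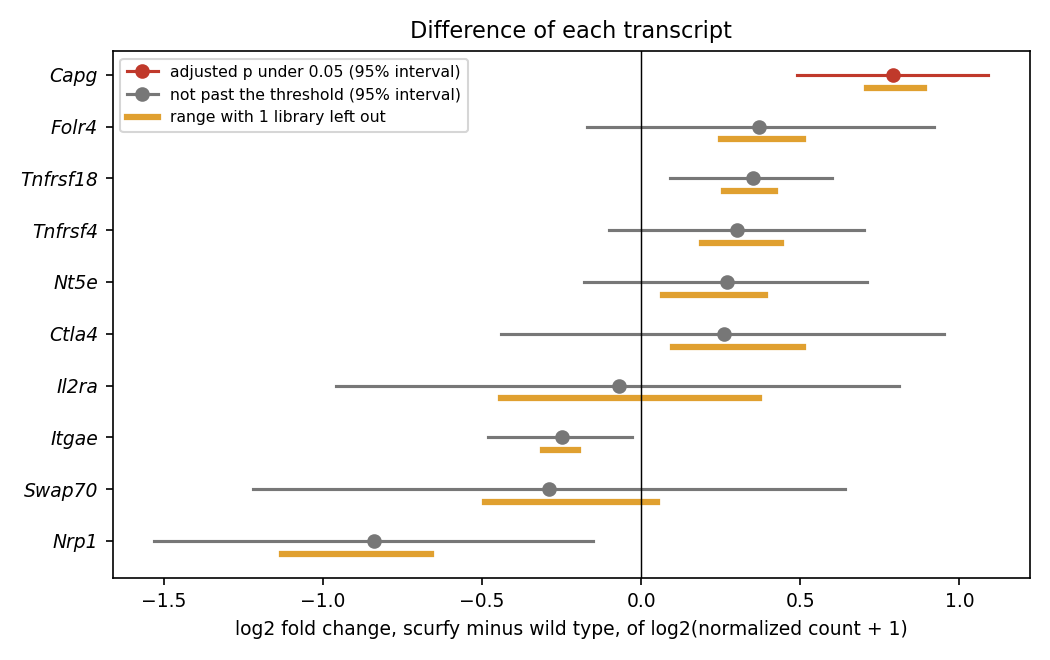
Log2 fold change of each of the 10 genes (horizontal axis, scurfy minus wild type on the log2(value + 1) scale), with its 95% interval from limma as a thin line and, in orange, the range when 1 of the 6 libraries is left out. Capg is the one gene past the adjusted threshold, at 0.79; the intervals of Tnfrsf18, Itgae and Nrp1 also lie on 1 side of 0 without passing, and the orange bars of Il2ra and Swap70 cross 0.

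Levels of different genes were compared per kilobase of exon, although this protocol primes from the poly-A tail, so dividing by exon length may understate long genes. On that scale the order in scurfy cells was Tnfrsf18 at 987 normalized counts per kilobase, Itgae at 399, Capg at 299, Tnfrsf4 at 207, Folr4 at 49.6, Ctla4 at 29.7, Nt5e at 26.0, Il2ra at 9.76, Nrp1 at 5.21 and Swap70 at 3.36. In wild-type cells it was Tnfrsf18 at 775, Itgae at 476, Capg at 172, Tnfrsf4 at 169, Folr4 at 38.2, Ctla4 at 24.4, Nt5e at 22.0, Il2ra at 11.1, Nrp1 at 9.03 and Swap70 at 3.99. The order of the means was the same in both genotypes. Some neighbours in it overlapped between libraries and are not ordered beyond their spread. In both genotypes these were Ctla4 with Nt5e and Il2ra with Nrp1, in scurfy cells also Nrp1 with Swap70, and in wild-type cells also Capg with Tnfrsf4 and Nt5e with Il2ra.

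**Figure D3:**
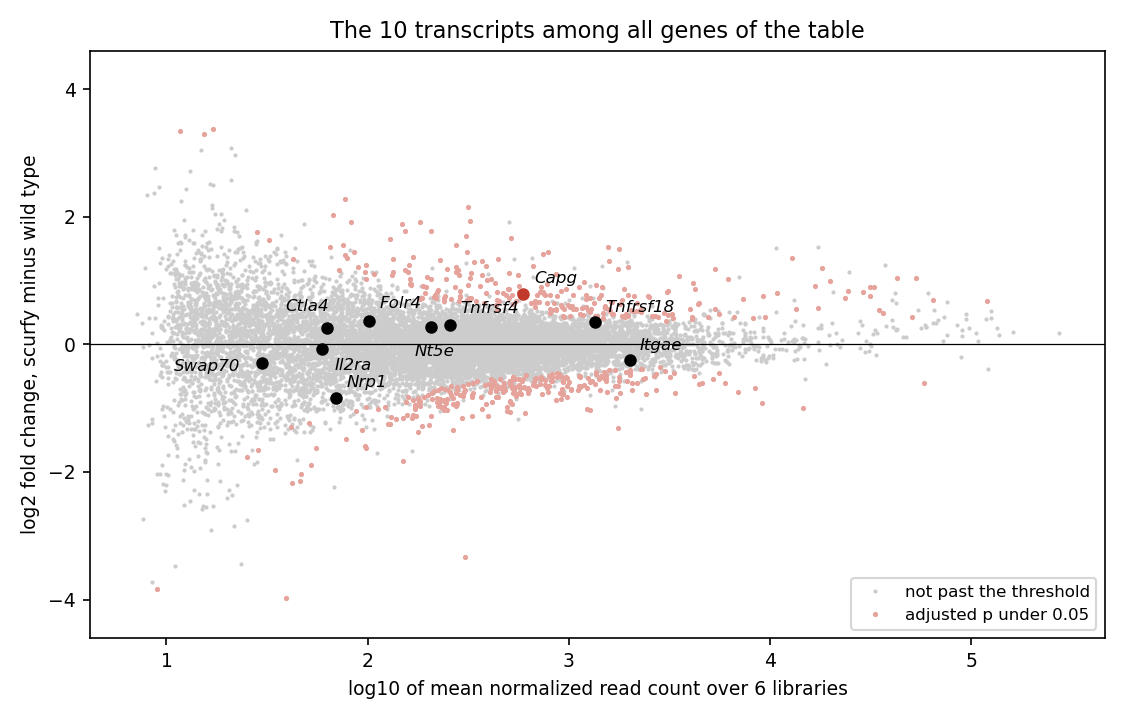
Log2 fold change (vertical axis, scurfy minus wild type) against the log10 of the mean normalized read count over 6 libraries (horizontal axis) for all 11581 genes; pale red points pass an adjusted p of 0.05 and large points are the 10 genes. Capg lies among the points that pass, and the other 9 genes do not pass.

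The genes whose values over the 6 libraries ran most like those of each of the 10 were found by Pearson's r of log2(value + 1). For Capg these were Sf3a2, a splicing factor subunit (r = 0.998), and the ribosomal protein pseudogene Rpl13a-ps1 (r = 0.996), whose reads may come from its parent gene. For Tnfrsf18 they were Ppil1 and Txnl4a (r = 0.992 and 0.985), for Nrp1 E230001N04Rik and Maff (r = 0.992 and 0.982) and for Itgae Slc25a26 and P4ha1 (r = 0.992 and 0.991). For Tnfrsf4 they were Ptges2 and Gm4705, for Il2ra Cercam and Susd1, for Ctla4 Nup37 and Psd2, and for Swap70 Tmem101 and Gm15197. For Folr4 they were Zkscan5 and A430057M04Rik, and for Nt5e Gm9844 and ENSMUSG00000108132. The best match of each of the 10 genes reached at least r = 0.984, over only 6 libraries and 11581 candidates. No gene of the 10 was the best match of another.

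**Figure D4:**
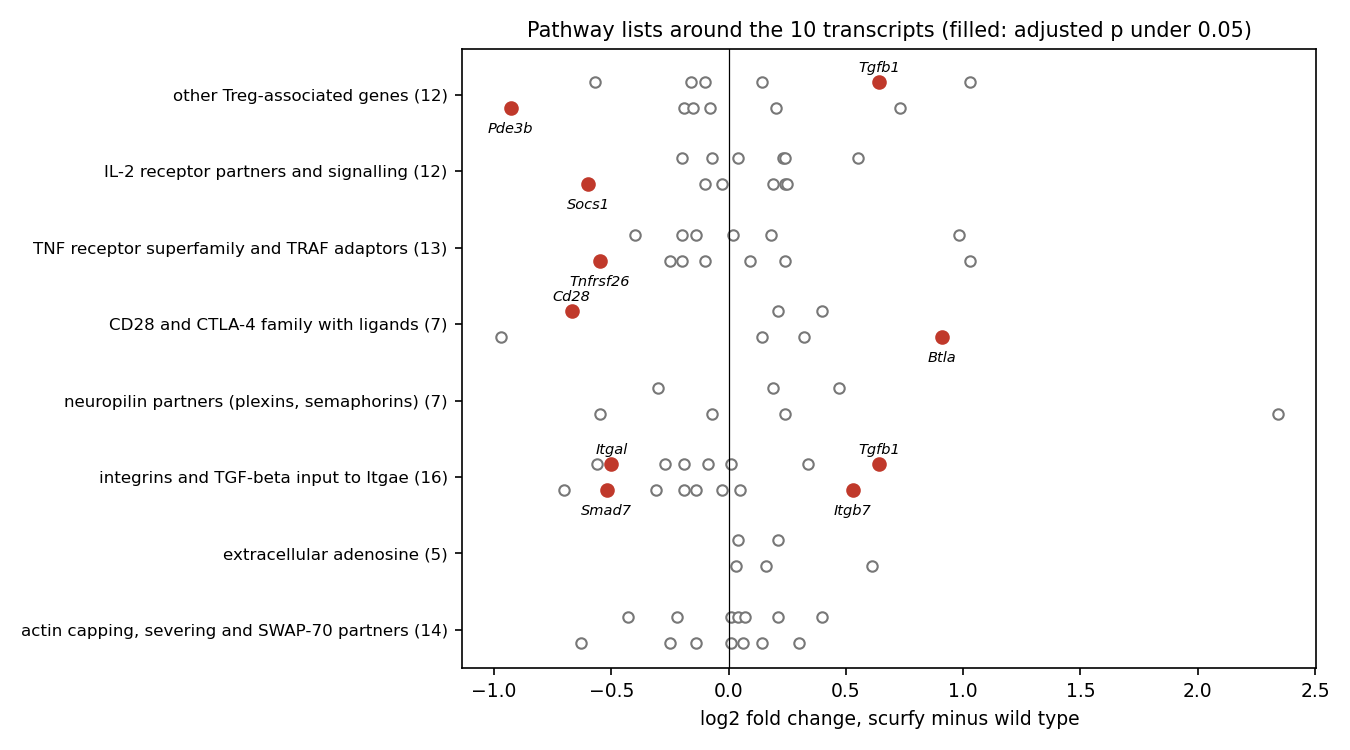
Log2 fold changes (horizontal axis, scurfy minus wild type) of the genes with a row in 8 lists around the 10 genes, the number with a row in brackets; filled points pass an adjusted p of 0.05 in limma and open points do not. Of 82 distinct genes 9 pass (11.0%, against 4.47% of all genes). Pde3b, Socs1, Tnfrsf26, Cd28, Smad7 and Itgal are lower and Btla, Itgb7 and Tgfb1 higher. The lists were chosen with earlier results of these data known, so this difference in share is no test of the lists.

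Other genes associated with regulatory T cells gave 1 call in each direction among 12 with a row, of 28 planned, against 4.47% of all genes. Their median log2 fold change was -0.09. Pde3b, a phosphodiesterase gene that Foxp3 represses in mouse regulatory T cells, fell to 450, 345 and 291 normalized counts in scurfy libraries, against 615, 669 and 755 in wild-type libraries (log2 fold change -0.93, SE 0.17, limma adjusted p = 0.00981). Without wild-type library 3 its adjusted p was 0.0544. Tgfb1, the cytokine TGF-beta 1, was at 452, 460 and 478 in scurfy and at 339, 309 and 248 in wild-type libraries. Its rise of 0.64 passed (limma adjusted p = 0.0345), and the call ended without any of 5 libraries, all but wild-type library 1, at up to 0.120. It also ended on library size alone (adjusted p = 0.0590). Tnfrsf9 (4-1BB), an activation-induced receptor, was at 79.9, 100 and 76.8 in scurfy and at 53.2, 51.2 and 25.2 in wild-type libraries without passing (log2 fold change 1.03, adjusted p = 0.0998). The Ikaros family factor Ikzf2, Helios, was at -0.57 (limma adjusted p = 0.258) and the repressor Bach2, named after its value was seen, at -0.19 (0.338). The 16 planned genes without a row were not analysed here, among them Tigit, Lag3, Lrrc32, Entpd1 and Gpr83.

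Around Il2ra, 12 of 13 planned interleukin-2 receptor partners and signalling genes had a row, with a median of 0.11. Socs1, the feedback inhibitor of cytokine receptor kinases, fell to 1991, 1705 and 1254 normalized counts in scurfy libraries, against 2350, 2257 and 2770 in wild-type libraries (log2 fold change -0.60, limma adjusted p = 0.0368). Leaving out any library but scurfy library 1 ended that call, at up to 0.130. The other receptor chains, named after their values were seen, did not pass, with Il2rb at -0.07 (SE 0.13) and Il2rg at 0.04 (SE 0.10). Il2 itself had 29.1, 37.8 and 29.6 in scurfy and 21.3, 20.8 and 22.7 in wild-type libraries (log2 fold change 0.55, adjusted p = 0.474). Jak1 was at 0.25 and Bcl2 at 0.19, and neither passed.

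Around Ctla4, 7 of 8 planned genes of the CD28 family and its ligands had a row, with a median of 0.21. Cd28 was lower and Btla higher. Cd28, whose ligands Ctla4 shares, was at 850, 897 and 862 normalized counts in scurfy libraries, against 1264, 1551 and 1360 in wild-type libraries (limma adjusted p = 0.00776). That call held whichever library was left out. Btla, an inhibitory receptor, was at 232, 209 and 297 in scurfy and at 144, 119 and 127 in wild-type libraries (limma adjusted p = 0.0258), a call that ended without any of 4 libraries, namely scurfy 1 or 3 and wild type 2 or 3, at up to 0.0852. Icos, named after its value was seen, which neighbours Ctla4 on chromosome 1, was at 0.14 and the ligand gene Cd274 at 0.40, and neither passed. The inhibitory receptor gene Pdcd1 was scarce, at 2.42, 18.3 and 9.46 in scurfy and at 21.3, 8.22 and 24.3 in wild-type libraries. Its groups overlapped, and it did not pass (log2 fold change -0.97, SE 0.75, limma adjusted p = 0.490). Without scurfy library 1 the log2 fold change of Pdcd1 was -0.29.

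Around Tnfrsf18 and Tnfrsf4, 13 of 16 planned receptors and TRAF adaptors had a row, with a median of -0.10. The receptor gene Tnfrsf26 fell to 499, 442 and 376 normalized counts in scurfy libraries, against 658, 598 and 662 in wild-type libraries (limma adjusted p = 0.0440). Its call ended without any library but scurfy library 1, at up to 0.123, and with the length trend removed (0.0502). Tnfrsf25, death receptor 3, was at -0.40 (limma adjusted p = 0.0697) and passed on library size alone (0.0230) and in DESeq2 (0.0357). Tnfrsf1a was at -0.25 without passing. The ligand genes Tnfsf4 and Tnfsf18 had no row.

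Around Itgae, 16 of 17 planned integrin and TGF-beta genes had a row, 2 passed in each direction, against 4.47% of all genes, and the median was -0.16. Itgb7, the partner chain of Itgae, rose to 2243, 2485 and 2497 normalized counts in scurfy libraries, against 1848, 1622 and 1539 in wild-type libraries (log2 fold change 0.53, limma adjusted p = 0.0177). Itgb7 and Itgae thus had opposite signs, although Itgae did not pass and the difference between them was not tested. The call of Itgb7 ended without scurfy library 2, wild-type library 2 or wild-type library 3, at up to 0.0680. Smad7, an inhibitor that TGF-beta induces, fell by 0.52 (adjusted p = 0.0234), and Itgal, the alpha chain of LFA-1, fell by 0.50 (0.0254). Each lost its call without any of 4 libraries, at up to 0.0957 and 0.101, and Itgal also with the length trend removed (0.0539). Tgfb1 is the other gene of this list that rose. Smad2, a signal carrier of TGF-beta receptors, was named after its value was seen. It was at -0.70 and did not pass in limma (adjusted p = 0.0512), but passed in edgeR (0.0473), in DESeq2 (0.0167) and with library totals (0.0190).

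The remaining lists held no call in limma. Of 7 neuropilin partners with a row, Plxna3 was at 14.5, 13.4 and 7.09 normalized counts in scurfy and at 0, 13.0 and 0 in wild-type libraries (adjusted p = 0.261), and Sema4b, Plxna1 and Plxnc1 were at 0.47, -0.55 and -0.30. Of 5 adenosine genes, the receptor gene Adora2a was at 90.8, 80.5 and 59.1 in scurfy and at 50.5, 42.0 and 56.2 in wild-type libraries (log2 fold change 0.61, adjusted p = 0.272). Dpp4 was at 0.16 and the nucleoside transporter genes Slc29a2 and Slc29a1 at 0.21 and 0.03, without passing, and Slc29a1 was at -0.11 with library totals. Of 14 genes of actin capping and severing and of SWAP-70 partners, the gelsolin relative Flii was at 0.40 (limma adjusted p = 0.0658, DESeq2 adjusted p = 0.0344). Capza2 was at -0.63, Rhoh at -0.43 and Rac1 at -0.22, and these 3 passed as lower on library size alone. Gsn, the founding member of the gelsolin family, named after its values were seen, was at 206, 217 and 206 in scurfy and at 239, 264 and 246 in wild-type libraries (log2 fold change -0.25, adjusted p = 0.426). In these 3 lists an unadjusted p under 0.05 was reached by 0, 0 and 5 genes, against 21.2% of all genes, edgeR called none and DESeq2 called Flii.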

How the data were processed

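PolyA RNA of CD8 T cells was reverse-transcribed from indexed poly-dT oligos, amplified linearly by T7 transcription, fragmented and sequenced on an Illumina NextSeq, per the labels' protocols. The submitters' processing notes name Trim Galore 0.4.4, STAR 2.6, featureCounts, edgeR, DESeq2 and the build NCBIM37, with no roles. The deposited signal values are read counts divided by 1 size factor per library, by the authors: 100% of values came out as whole reads within 0.01 of a read. The authors also deposited a comparison with log2 fold changes, their SEs, a score (the fold change over its SE) and p-values. Both deposited tables hold the same values.

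From these values, limma 3.58.1 in R 4.3.3 was fitted on log2(value + 1) with a variance trend and robust moderation, over all 11581 genes and the 6 unstimulated libraries, with Benjamini-Hochberg adjustment at 0.05. Residual and median prior degrees of freedom were 4 and 10.7. Alternatives were edgeR 4.0.16 and DESeq2 1.42.0 on the recovered reads, pseudocounts of 0.5 and 5, a minimum mean of 50, scaling by library total, a replicate block, removal of a trend on exonic length (GENCODE M21, 11571 genes matched), plain moderation and leaving out each library. The fits were tested on simulated data. Promoter windows came from RefSeq. The text names all 10 genes, up to 4 genes with the smallest p and every call from each list, and the 2 most alike genes for each of the 10. The 10 genes and the lists were chosen with earlier results of these data known. Counting errors given as a percent of a value cover the sampling of reads only. The intervals of log2 fold changes come from limma and also take in the spread between libraries.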

Additional observations from a re-analysis of the deposited data

How the results depend on the processing

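The 518 calls of limma (246 higher, 272 lower) became 891 in DESeq2 (415 higher, 476 lower), 929 with scaling by library total (168 higher, 761 lower) and 304 with the length trend removed (132 higher, 172 lower). The share of calls that were higher was 18.1% with library totals and 47.5% with the authors' scaling. Plain moderation gave 0 calls, 0 higher and 0 lower, with 2106 genes at an unadjusted p under 0.05; edgeR gave 545. Leaving out 1 library gave 113 to 403 calls (76 to 180 higher, 37 to 223 lower): 403, 221 and 230 without scurfy libraries 1, 2 and 3, and 306, 215 and 113 without wild-type libraries 1, 2 and 3. Of the 10 genes, 1 was called by limma, 2 with library totals (Capg and Itgae) and 0 with plain moderation. These settings called 4.47%, 8.02% and 0.00% of all genes. With 1 library left out, log2 fold changes ran from -0.44 to 0.37 for Il2ra, -0.49 to 0.05 for Swap70, -0.11 to 0.11 for Slc29a1 and 0.00 to 0.50 for Slc29a2, and Slc29a1 was -0.11 with library totals. The cause was not tested. Deviations from the group means correlated between same-numbered libraries with r of 0.00877, -0.0398 and -0.0695. Between differently numbered libraries r ran from -0.0885 to 0.116. With 3 libraries per group, these values cannot decide whether replicate numbers pair the samples. With the replicate block 372 genes passed (176 higher, 196 lower), the calls of Socs1, Tgfb1 and Tnfrsf26 ended at limma adjusted p of 0.0610, 0.0579 and 0.0665, and no call among the 10 genes changed. Swap70 was not tested with a minimum mean of 50. In the library with the fewest reads of each gene, counting error was 17.1% to 27.7% of the value for Swap70, Il2ra, Ctla4 and Nrp1. Their variance within groups was 2.22 to 15.5 times the sampling variance, lowest for Swap70, and this multiple was not tested.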

Other observations

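Genes next to some of the 10 on the chromosome were read as well, with no test of position. Ctla4 lies between Cd28, which fell, and Icos, which did not pass. Sdf4, beside Tnfrsf4, had a log2 fold change of 0.31 (limma adjusted p = 0.136). It passed in 1 of the 6 limma fits with 1 library left out, at an adjusted p of 0.0409. Il2ra lies between Rbm17 at -0.32 (adjusted p = 0.118) and Il15ra at 0.37. Elmod3, beside Capg, was at 235, 250 and 300 normalized counts in scurfy and at 254, 163 and 208 in wild-type libraries (log2 fold change 0.34, limma adjusted p = 0.346). Itgb1, beside Nrp1, was at -0.03, and Snx14, beside Nt5e, was at -0.44 (adjusted p = 0.163).

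Among the T cell markers Cd3d rose to 10113, 11029 and 13762 normalized counts in scurfy libraries, against 7118, 6838 and 6556 in wild-type libraries (limma adjusted p = 0.00551). That call held whichever library was left out. Cd8b1 had a log2 fold change of 0.00 (SE 0.10). Car2, the one erythroid marker with a row, was at 133, 101 and 156 in scurfy and at 303, 232 and 315 in wild-type libraries (limma adjusted p = 0.0139), and lost its call without wild-type library 3 (0.0645).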
